A study of Mus musculus with 30 samples.

Results

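The heart and the diaphragm are both striated muscles that contract rhythmically without pause, and their wild-type (WT) libraries were compared here with each other. The series holds 30 RNA-seq libraries of heart, liver, gastrocnemius and diaphragm from mice lacking myotubularin (Mtm1-/y) and from WT littermates, and the comparison takes the 4 WT heart and the 4 WT diaphragm libraries. Both groups came from untreated WT male mice of a pure 129Pas background at 5 weeks of age, and no Mtm1-/y library entered the fit. RNA was extracted from whole organs, so every level is a mean over all cell types of the organ, and fewer cells of a type cannot be told apart from less RNA per cell. The labels give a replicate number and no animal, so p-values measure the spread between these libraries, taken as unpaired in the main fit. Genes whose mean level in the 3 WT liver libraries was over 10 times that in WT heart were left out, which removed 3934 of the 36103 genes in the file and kept 32169. Just outside this limit stood Nipsnap3b and Dpp4, at 10.02 and 10.03 times the heart level, and just inside it Hpgd and Hyi at 9.961 and 9.95 times. Of the genes kept, 15439 passed the filter on low counts and were tested.

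Both muscles shorten by the sliding of myosin thick filaments over actin thin filaments, under the control of calcium and the troponin complex. Many of the proteins involved exist as a cardiac and a skeletal form encoded by separate genes. In skeletal fibres the surface calcium channel opens the release channel of the sarcoplasmic reticulum by direct contact, and each fibre is driven by a motor nerve. In the heart, calcium entering the cell triggers the release, the beat starts in pacemaker cells, and it spreads from cell to cell through gap junctions. Both organs are rich in mitochondria and burn fatty acids and glucose.

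The 8 libraries held 25870194 to 44289343 counts. Levels are given as CPM, counts scaled to a common library total after TMM normalisation, listed for libraries 1 to 4 of a tissue. Log2 fold changes are heart over diaphragm and are given ± their standard error, and adjusted p-values are from edgeR's quasi-likelihood test over all genes tested. The defining markers followed the tissue labels. All 7 pan-cardiomyocyte markers were higher in heart and all 9 skeletal fibre markers higher in diaphragm, with summed skeletal fibre levels of 1797 to 2940 CPM in heart and 63670 to 99680 CPM in diaphragm. Log2 CPM correlated at 0.96 to 0.99 within heart, 0.974 to 0.989 within diaphragm and 0.848 to 0.869 between the tissues. Some libraries stood apart from their group. The 15 hepatocyte markers, all of them left out by the liver rule, summed to 678 to 51300 CPM in diaphragm and 14.2 to 195 CPM in heart. Alb, the plasma albumin of the liver, stood in diaphragm 1, 2, 3 and 4 at 27.7%, 17.4%, 0.293% and 20.5% of its mean liver level, and at no more than 0.0268% of it in heart. At these shares the liver libraries' own profile would account for over 10% of the diaphragm level in 401 of the 1661 genes called higher in diaphragm, and for over 50% of it in 87. For a gene named below this liver part of its diaphragm level is given where it exceeds 10%. Heart 4 held the most atrial RNA, with 34050 CPM summed over the 6 atrial markers against 808 CPM in heart 2, and diaphragm 2 was the library with thymocyte transcripts, at 53.5 CPM over 6 markers.

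**Figure D1:**
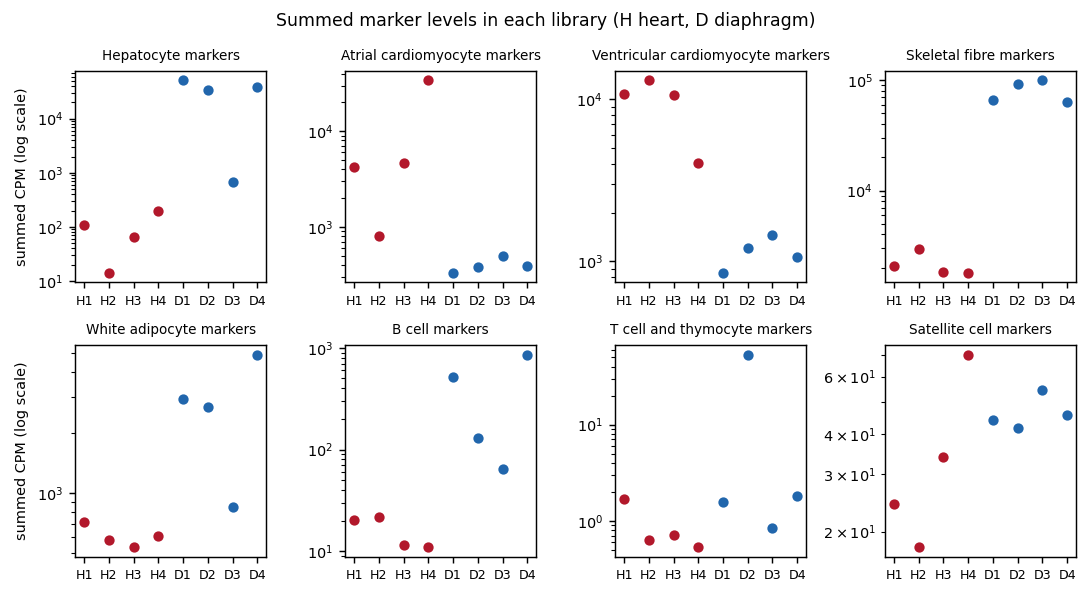
Summed CPM (log scale) of marker lists in each of the 4 WT heart libraries (H1 to H4, red) and 4 WT diaphragm libraries (D1 to D4, blue), 1 point per library. Hepatocyte markers range from 678 CPM in D3 to 51300 CPM in D1, and atrial markers reach 34050 CPM in H4.

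The comparison asks how far the transcriptomes of these muscles diverge. With calls set at adjusted p-values below 0.05 with log2 fold changes over 1 in size, 1387 genes (8.98% of those tested) were higher in heart and 1661 genes (10.8%) were higher in diaphragm. The counts of every gene list below are to be read beside these shares. In 2717 of these 3048 genes the 4 libraries of one tissue all lay above the 4 of the other, and this holds for every called gene named below except Bmp10 and Cd3e. Among all genes tested, called or not, 40.5% had no overlap between the tissues. In 97 genes called higher in heart and 108 called higher in diaphragm, the fitted difference was more than 100-fold, while the median log2 fold change of all genes tested was -0.017. The liver rule removes only genes that are low in heart next to liver. Without it 1433 genes were called higher in heart and 2315 higher in diaphragm. Among genes that averaged 10 CPM or more in the higher tissue and did not overlap, those with the largest fitted differences were Nppa and Mybpc3 in heart and 2310065F04Rik, Myh1 and Ryr1 in diaphragm. With diaphragm 3 as the sole diaphragm library, the one with little liver RNA, 867 and 980 genes were called (an alternative chosen after seeing the data, with the spread taken from the heart libraries alone). Of the 3048 calls 1570 were kept in that fit and 56 had the other sign, and with the scaled liver counts subtracted from each library 2652 were kept and 22 had the other sign.

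**Figure D2:**
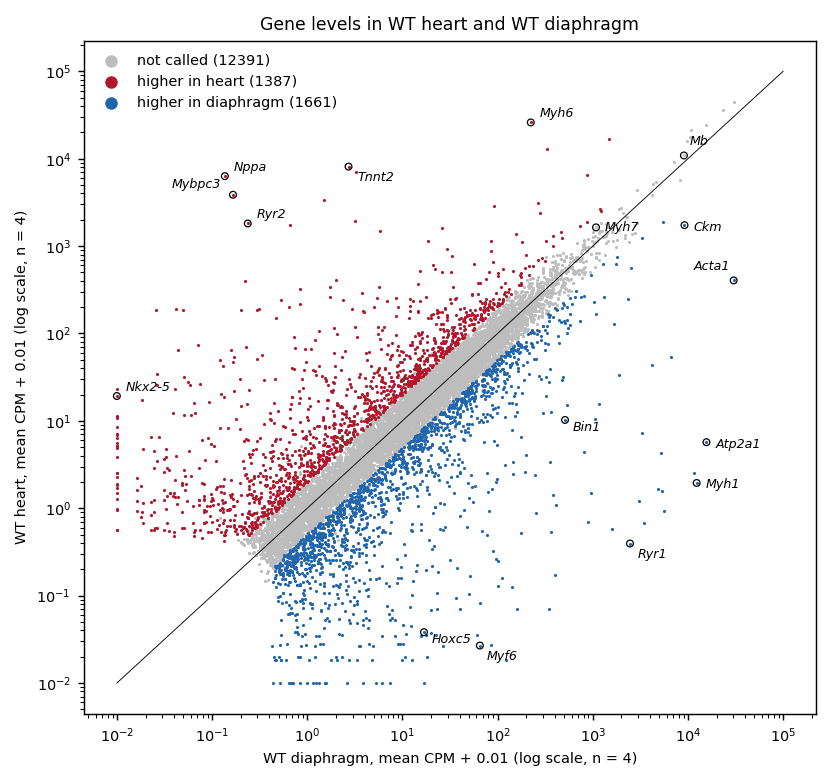
Mean CPM + 0.01 of each of the 15439 genes tested in WT diaphragm (x axis) and WT heart (y axis), both on log scales and over 4 libraries, with the line of equal levels. Genes called higher in heart (1387) are red, genes called higher in diaphragm (1661) are blue, and Myh7 and Mb lie close to the line.

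Thick filament genes separated the tissues by which member of a family was expressed. Of 9 myosin heavy chain genes, 2 were higher in heart and 6 higher in diaphragm. Myh6, the fast cardiac alpha heavy chain, stood at 22190, 24860, 28300 and 28720 CPM in heart and 161, 249, 299 and 184 CPM in diaphragm, a log2 fold change of 6.86 ± 0.35, adjusted p = 6.98e-07. All diaphragm libraries lay far below the heart, and none was near 0. Myh1, the heavy chain of fast IIX fibres, had 11040, 12490, 17430 and 8495 CPM in diaphragm, against 1.84, 1.49, 1.88 and 2.53 CPM in heart (log2 fold change -12.64 ± 0.43, adjusted p = 8.41e-08). Myh2, the IIA heavy chain, had 4166, 5162, 7830 and 4404 CPM in diaphragm against 1.22, 1.26, 1.71 and 2.00 CPM (log2 fold change -11.76 ± 0.39, adjusted p = 7.8e-08). Myh4, the IIB heavy chain, had 1022, 6043, 2783 and 2488 CPM in diaphragm, with diaphragm 1 the lowest and diaphragm 2 the highest, and 2.08, 0.992, 0.377 and 1.30 CPM in heart (log2 fold change -11.35 ± 0.82, adjusted p = 7.16e-06). Per kb of transcript, Myh6 made up 94.7% ± 0.121 (SD, n = 4) of all myosin heavy chain in heart, whereas Myh1, Myh2 and Myh4 made up 57.9% ± 7.14, 22.5% ± 2.75 and 14.8% ± 8.49 of it in diaphragm. The remaining share lay mostly with Myh7, the slow beta heavy chain that cardiac muscle and slow skeletal fibres both use. Myh7 read 1352, 1518, 1735 and 1950 CPM in heart and 768, 1213, 1536 and 814 CPM in diaphragm, the ranges overlapped, and no difference was called (log2 fold change 0.60 ± 0.24, adjusted p = 0.0747). Its share of the heavy chains per kb was 4.64% ± 0.252 in heart and 3.69% ± 0.220 in diaphragm. Myh7b was 7.35-fold higher in heart (log2 fold change 2.88 ± 0.29, adjusted p = 6.61e-05), and the developmental chain Myh8 was higher in diaphragm at 9.21, 13.2, 19.2 and 9.41 CPM against 0.235, 0.0992, 0.445 and 1.83 CPM.

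The genes of these heavy chains lie in 2 clusters. Myh6 and Myh7 are neighbours on the minus strand of chromosome 14 (mm10, 54941921 to 54994626), with 3756 bases between them, and one was called and the other was not. On chromosome 11 Myh3, Myh2, Myh1, Myh4, Myh8 and Myh13 follow each other on the plus strand between 67078300 and 67371586, and all 6 were higher in diaphragm. Within this cluster, between Myh3 and Myh2, lies the long intergenic RNA 2310065F04Rik on the minus strand, the gene with the largest fitted fold in that direction. Whether counting used strand is not given in the sources used here, so its counts may hold reads from the plus strand. It read 104, 135, 159.9 and 93.3 CPM in diaphragm and 1 count in all heart libraries together, a ratio of 14200 (95% counting interval 2540 to 560000, adjusted p = 4.95e-08).

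The start regions of the leading heavy chain gene of the heart and of a fast heavy chain gene are printed here, since the pair differs by 116-fold in one direction and by a log2 fold change of -11.35 in the other. Both are RefSeq windows on GRCm38.p6 running from 250 bases before the annotated start to 50 after it, and capitals mark 3 motifs searched on both strands: the TATA box read as TATAAA, the E-box read as CAGCTG and the CArG box, the binding motif of serum response factor. The Myh6 window is chr14:54966558-54966857 on the minus strand and the Myh4 window chr11:67237562-67237861 on the plus strand.
Myh6: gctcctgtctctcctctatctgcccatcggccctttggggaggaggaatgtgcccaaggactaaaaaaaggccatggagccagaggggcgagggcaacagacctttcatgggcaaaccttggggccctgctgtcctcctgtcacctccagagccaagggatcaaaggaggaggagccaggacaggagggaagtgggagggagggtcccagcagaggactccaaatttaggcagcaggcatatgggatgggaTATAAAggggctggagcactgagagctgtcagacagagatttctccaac
Myh4: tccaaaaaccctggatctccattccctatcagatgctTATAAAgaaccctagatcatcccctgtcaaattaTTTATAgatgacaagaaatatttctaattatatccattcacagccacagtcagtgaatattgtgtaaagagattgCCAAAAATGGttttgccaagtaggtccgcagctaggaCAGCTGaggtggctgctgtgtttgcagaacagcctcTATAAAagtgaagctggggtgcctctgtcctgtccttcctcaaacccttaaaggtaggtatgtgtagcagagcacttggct
The Myh6 window holds TATAAA once, starting 2 bases after the annotated start, and neither other motif. The Myh4 window holds TATAAA at 3 places, a CArG box and CAGCTG, without overlap between motifs. Among 32851 promoter windows of the same length, 13.6% hold the TATAAA motif, 16.3% the CAGCTG motif and 1.63% a CArG box. Only 72.2% of the tested genes have a window in the table, so no share was compared between the gene groups.

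The light chains and myosin-binding proteins divided evenly, with 7 of 15 higher in heart and 7 higher in diaphragm. Mybpc3, cardiac myosin-binding protein C, had 4119, 5081, 3708 and 2561 CPM in heart and 0.133, 0.103, 0.0349 and 0.353 CPM in diaphragm, a 24790-fold difference (log2 fold change 14.56 ± 0.54, adjusted p = 1.31e-07). Its slow skeletal relative Mybpc1 had 2739, 3587, 4907 and 2483 CPM in diaphragm and 0.431, 0.232, 0.891 and 1.13 CPM in heart (log2 fold change -12.30 ± 0.56, adjusted p = 3.55e-07). In both cases every library of one tissue lay far above every library of the other. Mybpc2, the fast form, was less exclusive, at 1879 CPM in diaphragm and 33.5 CPM in heart (log2 fold change -5.81 ± 0.37, adjusted p = 3.52e-06). Mylpf, the fast regulatory light chain, read 4318, 6038, 5578 and 3532 CPM in diaphragm and 1.69, 1.52, 1.75 and 1.66 CPM in heart (log2 fold change -11.52 ± 0.31, adjusted p = 3.6e-08), and the fast essential light chain Myl1 was 101-fold higher in diaphragm. The ventricular light chains Myl2 and Myl3, which slow fibres also use, were 7.45-fold and 11.6-fold higher in heart, with 611, 968, 1152 and 769 CPM of Myl2 in diaphragm. Heart 4 was the lowest heart library for both (2269 and 1736 CPM) and the highest for the atrial light chains Myl4 and Myl7.

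On the thin filament, 7 of 20 genes were higher in heart and 11 in diaphragm. Acta1, skeletal alpha-actin, had 25400, 34950, 37050 and 23570 CPM in diaphragm and 344, 789, 196 and 291 CPM in heart (log2 fold change -6.22 ± 0.54, adjusted p = 2.38e-05). Actc1, cardiac alpha-actin, had 13310, 14880, 12960 and 10120 CPM in heart and 389.6, 251, 545 and 128 CPM in diaphragm (log2 fold change 5.29 ± 0.48, adjusted p = 2.97e-05). Each actin was therefore present in the other tissue, at a level that varied between libraries, up to 789 CPM of Acta1 in heart 2 and 545 CPM of Actc1 in diaphragm 3. The troponins were more sharply divided. Tnnt2 and Tnni3, cardiac troponin T and I, had 8114 ± 1201 and 3363 ± 113 CPM (SD, n = 4) in heart and 2.71 ± 1.53 and 1.51 ± 0.413 CPM in diaphragm. The fast forms Tnnt3, Tnni2 and Tnnc2 had 11470 ± 2338, 5159 ± 1110 and 5642 ± 1264 CPM in diaphragm and 2.5 ± 0.938, 4.26 ± 3.51 and 0.925 ± 0.207 CPM in heart. No library of one tissue came near the other for these 5 genes. The slow forms Tnnt1 and Tnni1 were 35-fold and 291-fold higher in diaphragm. Tnnc1, the troponin C that cardiac and slow fibres share, was 8.63-fold higher in heart (log2 fold change 3.11 ± 0.24, adjusted p = 9.94e-06). Nebulin, the giant ruler of the skeletal thin filament encoded by Neb, was 455-fold higher in diaphragm and its small cardiac relative Nebl 204-fold higher in heart. Of the tropomyosins, Tpm2 was 124-fold higher in diaphragm, while Tpm1 was abundant in both, with 9503, 10270, 9815 and 7352 CPM in heart and 5947, 8071, 8337 and 5897 CPM in diaphragm (log2 fold change 0.39 ± 0.23, adjusted p = 0.195).

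The start regions of the actin pair are shown because both hold the CArG box, which is rare among promoter windows, although their genes differ in opposite directions. The Actc1 window is chr2:114052826-114053125 and the Acta1 window chr8:123894726-123895025, both on the minus strand of GRCm38.p6, with the same capitals as above.
Actc1: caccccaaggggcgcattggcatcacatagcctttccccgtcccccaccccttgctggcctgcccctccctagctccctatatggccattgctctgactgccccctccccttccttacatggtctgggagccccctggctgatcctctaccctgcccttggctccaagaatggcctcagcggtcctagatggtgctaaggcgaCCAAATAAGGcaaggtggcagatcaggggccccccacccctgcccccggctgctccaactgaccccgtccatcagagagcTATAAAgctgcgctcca
Acta1: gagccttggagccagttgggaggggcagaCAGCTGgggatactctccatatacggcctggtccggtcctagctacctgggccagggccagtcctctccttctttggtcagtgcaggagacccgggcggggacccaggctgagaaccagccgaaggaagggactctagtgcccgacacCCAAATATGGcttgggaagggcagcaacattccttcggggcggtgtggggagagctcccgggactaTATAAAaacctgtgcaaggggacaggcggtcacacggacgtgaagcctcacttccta
The CArG box begins 47 bases before the annotated start in Actc1 and 73 bases before it in Acta1. Both windows hold TATAAA, and the Acta1 window also holds CAGCTG. A match is a run of letters and was not tested as a site of binding.

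The troponin genes are arranged in pairs of a troponin I and a troponin T gene, and in 2 of the 3 pairs the partners differed in opposite directions. On chromosome 7, Tnni3 (4518305 to 4524229) and Tnnt1 (4504570 to 4516382) lie 1922 bases apart on the minus strand, with log2 fold changes of 11.13 and -5.13. On chromosome 1, Tnnt2 and Tnni1 lie 25364 bases apart with Lad1 between them, and differed by 11.54 and -8.18. The third pair, Tnni2 and Tnnt3 on chromosome 7, lies 54425 bases apart with Lsp1 between, and both were higher in diaphragm. Beyond Tnnt3, 28599 bases away, lies the non-coding gene Nctc1, which read 63.7, 82.7, 118 and 79.4 CPM in diaphragm and 2 counts in all heart libraries together (ratio 4940, 95% counting interval 1370 to 40800, adjusted p = 7.65e-08).

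Taken by family, the share of cardiac-type members in the summed level per kb was computed in each library for 22 families (a description, with no test). In 11 families the mean cardiac-type share was above 95% in heart and below 10% in diaphragm. Troponin T had 99.2% ± 0.213 (SD, n = 4) in heart and 0.00477% ± 0.00309 in diaphragm, and the SERCA calcium pump 99.9% ± 0.0681 and 5.26% ± 0.927. Other families were shared. Alpha-actinin was almost wholly the Actn2 form in heart (99.9%), but Actn2 still made up 64.8% ± 6.91 in diaphragm, next to Actn3 of fast fibres. Junctophilin and leiomodin behaved likewise, with 70.1% and 51.7% in diaphragm. Lactate dehydrogenase, whose Ldhb form was counted as cardiac, ranged from 71.8% to 77.2% in heart and from 58.6% to 72.0% in diaphragm, so the ranges met. For phosphoglycerate mutase and enolase both tissues used the muscle forms Pgam2 and Eno3, the other forms making up 0.328% in heart and 0.280% in diaphragm. 2 shares varied widely between libraries: the SERCA inhibitors in heart, from 57.6% to 99.7%, and the cadherins in diaphragm, from 3.45% to 35.6%. The cadherin share was 35.6%, 23.3%, 3.45% and 20.4% in diaphragm 1, 2, 3 and 4. In the same libraries Alb stood at 27.7%, 17.4%, 0.293% and 20.5% of its liver level. The part of liver RNA in this share was not tested, and the liver part of the cadherin Cdh2 is given below.

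**Figure D3:**
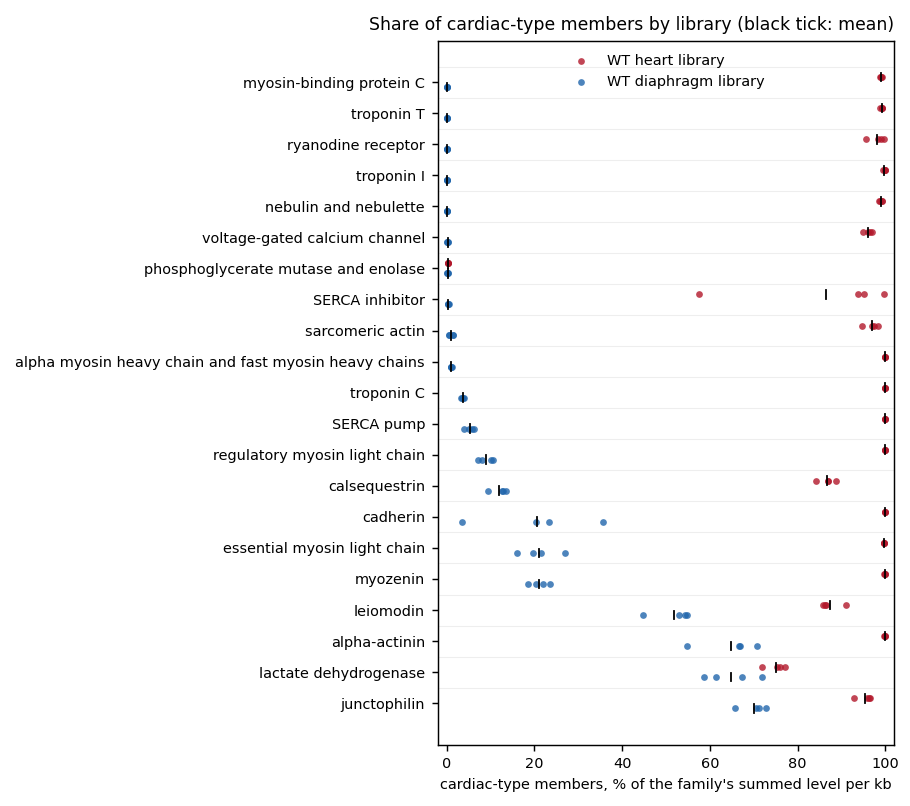
Cardiac-type members as a percentage of a family's summed level per kb, for all but 1 of the families, in the 4 WT heart libraries (red) and 4 WT diaphragm libraries (blue), with the mean as a black tick. Of all 22 families, 11 have means above 95% in heart and below 10% in diaphragm. Leiomodin, alpha-actinin, lactate dehydrogenase and junctophilin lie at 44.9% or more in every diaphragm library. Between these lie the essential light chain, myozenin, cadherin and calsequestrin, with diaphragm means of 21.07%, 21.13%, 20.7% and 12.05%. Phosphoglycerate mutase and enolase lies near 0% in both tissues.

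Z-disc and M-band genes were less divided than the filaments: 4 of 23 (17.4%) were higher in heart, 8 (34.8%) higher in diaphragm and 11 not called. Of all genes tested, 8.98% and 10.8% were called. Actn2, which cross-links actin at the Z-disc, had 1959, 2322, 2047 and 2275 CPM in heart and 1864, 2430, 2966 and 1726 CPM in diaphragm, with overlapping ranges (log2 fold change -0.06 ± 0.20, adjusted p = 0.819, 95% interval -0.51 to 0.39). Ttn, the giant spring titin, was not called either (log2 fold change -0.55 ± 0.25, adjusted p = 0.111). Ankrd1, a stretch-responsive cardiac ankyrin repeat protein, had 619, 696, 752 and 3844 CPM in heart and 1.69, 8.57, 5.79 and 7.45 CPM in diaphragm (log2 fold change 7.97 ± 0.90, adjusted p = 0.000123), with heart 4 far above the other heart libraries. Csrp3, the muscle LIM protein, was 8.86-fold higher in heart, and Myom2, an M-band protein, 2.21-fold. The call of Myom2 was lost without diaphragm 1 (log2 fold change 1.00) and with liver counts subtracted (0.956). In the other direction Myoz1 and Myoz3, calcineurin-binding Z-disc proteins of fast fibres, were 1321-fold and 2689-fold higher in diaphragm, Actn3 636-fold, and Myot, myotilin, 75.0-fold. Myoz2, the cardiac and slow form, was 2.60-fold higher in heart.

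The genes that couple excitation to contraction also differed by type. Of 16 skeletal-type genes 13 were higher in diaphragm and none in heart, and of 14 cardiac-type genes 8 were higher in heart and 2 in diaphragm (Cmya5 and Ppp1r1a), with median log2 fold changes of -5.34 and 2.33. Ryr1, the release channel of skeletal muscle, had 1882, 2684, 3312 and 1975 CPM in diaphragm and 0.431, 0.198, 0.377 and 0.532 CPM in heart (log2 fold change -12.63 ± 0.39, adjusted p = 5.55e-08). Ryr2, the cardiac release channel, had 1747, 1931, 1890 and 1691 CPM in heart and 0.133, 0.284, 0.140 and 0.353 CPM in diaphragm (log2 fold change 12.91 ± 0.30, adjusted p = 2.07e-08). Neither gene reached 1 CPM in any library of the other tissue. The surface channels followed, with Cacna1s 183-fold higher in diaphragm and Cacna1c 60.0-fold higher in heart. The calcium pump Atp2a1 (SERCA1) read 12570, 18800, 18890 and 12370 CPM in diaphragm and 3.10, 1.75, 2.81 and 15.1 CPM in heart (log2 fold change -11.42 ± 0.92, adjusted p = 1.51e-05). Atp2a2 (SERCA2) read 16100, 16040, 19040 and 16290 CPM in heart and was still present in diaphragm at 1170, 1397, 1998 and 1437 CPM (log2 fold change 3.49 ± 0.25, adjusted p = 7.92e-06). The heart libraries thus held Atp2a2 with little Atp2a1, while both pumps were present in every diaphragm library. Pln, phospholamban, which restrains SERCA2, had 7399, 8432, 8867 and 3728 CPM in heart and 2.02, 3.56, 5.34 and 2.15 CPM in diaphragm (log2 fold change 11.09 ± 0.55, adjusted p = 6.5e-07). Sln, sarcolipin, another SERCA inhibitor, had 236, 11.7, 209.8 and 1306 CPM in heart and 325, 371, 496 and 380.5 CPM in diaphragm, so the heart libraries lay on both sides of the diaphragm (log2 fold change 0.17 ± 0.95, adjusted p = 0.902, and -1.36 without heart 4). Among the calcium-binding proteins, Pvalb, the parvalbumin of fast fibres, was 2865-fold higher in diaphragm, while the calsequestrins were shared more evenly, Casq1 13.3-fold higher in diaphragm and Casq2 3.57-fold higher in heart. Jph2, Hrc and Trdn, which hold the calcium release unit together or buffer its calcium, had log2 fold changes of 0.45, 0.55 and -0.57 and were not called.

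Ion channels were divided in the same way. Of 21 cardiac channel and pacemaking genes, 15 were higher in heart and none in diaphragm (median log2 fold change 4.03), and of 10 skeletal muscle channel and pump genes, 8 were higher in diaphragm and none in heart (median -2.91). Scn4a, the skeletal muscle sodium channel, had 256, 345, 459.8 and 234 CPM in diaphragm and was still present in heart at 21.8, 29.4, 42.2 and 34.6 CPM (log2 fold change -3.34 ± 0.28, adjusted p = 1.75e-05). Every heart library thus held it, below every diaphragm library. Kcnip2, a subunit of the transient outward potassium current, was 321-fold higher in heart, Kcnk3 34.5-fold and Kcnj3, the acetylcholine-gated channel of atrial and nodal cells, 65.4-fold, with its highest level in heart 4 (387 CPM). The pacemaker channel Hcn4 had 25.0, 21.1, 28.3 and 15.2 CPM in heart and 2.45, 1.32, 1.64 and 1.93 CPM in diaphragm (log2 fold change 3.61 ± 0.25, adjusted p = 5.98e-06). Clcn1, the chloride channel that stabilises the skeletal membrane, was 10.8-fold higher in diaphragm and the sodium channel beta subunit Scn4b 268-fold.

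At the neuromuscular junction, 8 of 14 genes tested were higher in diaphragm and 1, Prkar1a, a widely expressed kinase subunit, was higher in heart. Chrna1, the alpha subunit of the muscle acetylcholine receptor, had 19.3, 18.5, 29.2 and 12.6 CPM in diaphragm and 0, 0.165, 0 and 0.0665 CPM in heart (log2 fold change -8.26 ± 0.55, adjusted p = 4.46e-06). Chrnd, the delta subunit, had 7.98, 5.76, 11.8 and 3.76 CPM in diaphragm and no count in any heart library, at least 281-fold higher against a floor of 3 counts over the heart libraries (adjusted p = 0.00015). With almost no heart counts, Chrna1 and Chrnd could pass the low-count filter only through the diaphragm libraries, which set their direction. Chrnb1 was expressed in both and 6.67-fold higher in diaphragm, and Rapsn, Lrp4, Dok7 and Agrn, which build the synapse, were not called, with log2 fold changes from -0.90 to 0.55 (liver part of Agrn 12.5%). Of the autonomic receptors, Chrm2, the muscarinic receptor through which the vagus slows the heart, had 187, 165, 257 and 369.6 CPM in heart and 0.364, 0.439, 0.419 and 0.867 CPM in diaphragm (log2 fold change 8.86 ± 0.40, adjusted p = 3.34e-07). Adrb1, the cardiac beta-adrenergic receptor, was 16.6-fold higher in heart (10.9 against 0.656 CPM, liver part 16.1%).

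Genes of the gap junction and the intercalated disc, the junction that joins cardiomyocytes end to end, were higher in heart in 11 of 15 cases. Gja1, connexin 43, had 577, 691, 659.9 and 562 CPM in heart and 56.7, 49.7, 66.6 and 54.3 CPM in diaphragm (log2 fold change 3.45 ± 0.14, adjusted p = 1.89e-07). Dsp, desmoplakin, had 1042, 1386, 1216 and 940.5 CPM in heart and 19.1, 26.7, 4.88 and 23.4 CPM in diaphragm (log2 fold change 5.95 ± 0.51, adjusted p = 2.12e-05), and Cdh2, N-cadherin, 219, 275, 312 and 194 CPM and 22.8, 13, 1.92 and 10.0 CPM (log2 fold change 4.39 ± 0.60, adjusted p = 0.000405). For Dsp and Cdh2 diaphragm 3 was the lowest diaphragm library, and the liver profile scaled to Alb would account for 85.8% and 81.9% of their diaphragm level. Popdc2, a membrane protein of cardiac and skeletal muscle, was 15.8-fold higher in heart. The exception was Cdh15, M-cadherin of muscle precursors and fibres, with 16.6, 17.2, 21.7 and 15.7 CPM in diaphragm and 3 counts in all heart libraries (ratio 682, 95% counting interval 234 to 3310). Of 15 dystrophin complex and costamere genes, which tie fibres to the matrix, 1 was higher in heart and 1 in diaphragm. With the limit on fold the list was thus near the background (6.67% each, against 8.98% and 10.8% of all genes tested). Without that limit, 7 of the 15 were higher in heart and 1 in diaphragm at an adjusted p under 0.05. Of all 15439 genes tested, 3329 and 3350 were. The list summed to 3039 to 3425 CPM in heart and 1976 to 2929 CPM in diaphragm. Dmd, dystrophin, had 139, 129, 151 and 138 CPM in heart and 121, 148, 197 and 106 CPM in diaphragm (log2 fold change -0.04 ± 0.18, adjusted p = 0.879, 95% interval -0.44 to 0.36). Lama2, the laminin chain of the muscle basement membrane, was 2.71-fold higher in heart. Of 19 genes of integrins and their binding proteins, 3 were higher in heart, Itga5, Itga9 and Itga8 (liver parts 16.4%, 15.4% and 22.9%). Itga4 alone was higher in diaphragm. These shares, 15.8% and 5.26%, stand beside 8.98% and 10.8% of all genes tested, so with the limit on fold this list too was near the background. Without it, 9 of the 19 were higher in heart and 4 in diaphragm at an adjusted p under 0.05. Summed levels of the integrin list were 2247 to 2390 CPM in heart and 1530 to 1873 CPM in diaphragm.

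The regulators of lineage separated the tissues. All 19 skeletal myogenic factors tested were higher in diaphragm, with a median log2 fold change of -6.96. Members with almost no heart counts, such as Myf6, Myod1, Myog and Pax7, could pass the low-count filter only through the diaphragm libraries. Their direction was thus set by entering the test, and the count of 19 is a description. Myf6, the myogenic factor of mature fibres, had 45.0, 88.7, 79.2 and 47.7 CPM in diaphragm and 2 counts in all heart libraries (ratio 3750, 95% counting interval 1040 to 30900, adjusted p = 2.39e-07). Myod1 and Myog had 9.64, 14.9, 9.91 and 7.84 CPM and 12.1, 9.16, 10.5 and 7.36 CPM in diaphragm and 1 count each in all heart libraries. Pax7, which marks satellite cells, the stem cells of skeletal muscle, had 6.03, 6.82, 7.92 and 3.85 CPM in diaphragm and none in heart, at least 236-fold higher (adjusted p = 3.46e-05). These 4 genes were at or close to no count in every heart library and present in every diaphragm library. Tbx15, which acts in fast fibres, had 176 ± 37.1 CPM (SD, n = 4) in diaphragm against 0.505 ± 0.161 CPM in heart. Sox6, a repressor of slow fibre genes, was expressed in both and 3.22-fold higher in diaphragm.

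Of 20 cardiac transcription factors, 12 were higher in heart (median log2 fold change 3.62). Members with almost no diaphragm counts, such as Nkx2-5 and Irx4, could pass the low-count filter only through the heart libraries. Their direction was thus set by entering the test, and the count of 12 is a description. Nkx2-5, the homeobox factor of the cardiac lineage, had 19.4, 18.6, 15.7 and 23.2 CPM in heart and no count in any diaphragm library, at least 825-fold higher against a floor of 3 counts over the diaphragm libraries (adjusted p = 2.24e-06). Tbx20 and Gata4 had 181, 185, 228 and 264 CPM and 108, 121, 116 and 124 CPM in heart and 0.927, 0.981, 0.349 and 1.03 CPM and 7.88, 4.57, 4.15 and 5.62 CPM in diaphragm (log2 fold change 8.01 ± 0.30, adjusted p = 1.44e-07, and 4.40 ± 0.20, adjusted p = 3.43e-07). The liver profile would account for 49.5% and 41.6% of those small diaphragm levels. Tbx5, which is stronger in atria, had 52.3, 23.4, 57.8 and 230 CPM in heart, lowest in heart 2 and highest in heart 4, and 0.398, 0.542, 0.628 and 1.28 CPM in diaphragm (log2 fold change 6.99 ± 0.84, adjusted p = 0.000182). Of these 4 genes, Nkx2-5 alone had no count in diaphragm. Irx4, a ventricular factor, had 19.9, 24.6, 17.4 and 8.15 CPM in heart, lowest in heart 4, and 1 count in diaphragm. The 3 that were higher in diaphragm were Mef2c, which also acts in skeletal muscle (5.66-fold, log2 fold change -2.5 ± 0.18, adjusted p = 7.19e-06), Tbx3 (4.14-fold) and Isl1, at 1.22 ± 0.278 CPM against 0.185 ± 0.205 CPM.

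Hox genes, which give cells their position along the body axis, were read mostly in diaphragm. All 19 tested were higher in diaphragm (median log2 fold change -2.81), and 17 of the 36 in the file were not tested, 14 for low counts and 3 by the liver rule. Over all 36, the summed level was 4.63 to 8.75 CPM in heart and 82.4 to 95.9 CPM in diaphragm. A Hox gene with almost no heart counts could pass the low-count filter only through the diaphragm libraries. For such genes the direction was set by entering the test, so the count of 19 is no separate support. The tested ones were 18 of the 23 genes of paralogue groups 1 to 8 and 1 of the 13 of groups 9 to 13. The largest differences were those of Hoxc5, Hoxc6 and Hoxc4, neighbours on chromosome 15. Hoxc5 had 15.9, 19.3, 19.5 and 12.7 CPM in diaphragm and 3 counts in all heart libraries (ratio 646, 95% counting interval 221 to 3130), Hoxc6 had 12.7, 18.9, 19.7 and 11.4 CPM and 3 counts, and Hoxc4 had 9.14, 10.6, 11.6 and 9.38 CPM against 0.0784, 0.0661, 0 and 0 CPM (log2 fold change -8.03 ± 0.43, adjusted p = 1.01e-06). Hoxa5 had 9.54, 10.6, 8.76 and 12.3 CPM in diaphragm and 0.745, 0.198, 0.274 and 0.299 CPM in heart (log2 fold change -4.78 ± 0.35, adjusted p = 7.43e-06). In the annotation the spans of Hoxc5, Hoxc6 and Hoxc4 overlap or adjoin, and counts of overlapping genes are uncertain.

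**Figure D4:**
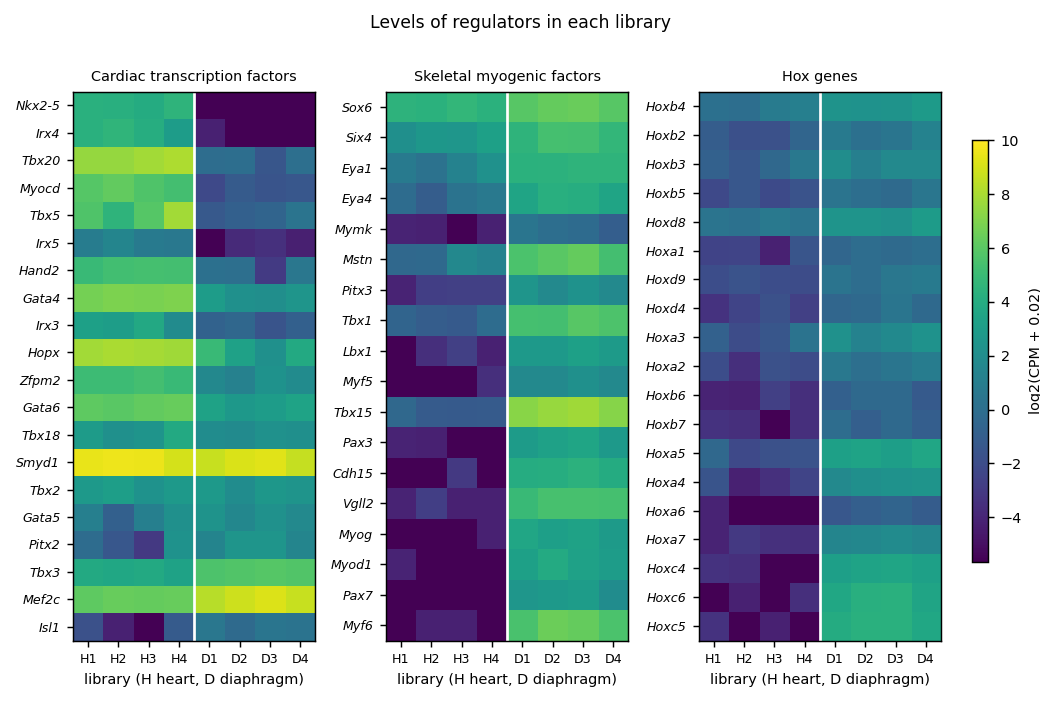
Levels, as log2(CPM + 0.02), of the cardiac transcription factors (20), skeletal myogenic factors (all but 1 of 19) and Hox genes (19) tested, in heart libraries H1 to H4 and diaphragm libraries D1 to D4, with genes ordered by their log2 fold change. Every myogenic factor and Hox gene shown is brighter in the diaphragm columns, and 12 of the 20 cardiac factors were called higher in heart.

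The heart is also an endocrine organ, and natriuretic peptides and other atrial genes were higher there (9 of 10, median log2 fold change 10.04). Without heart 4 the median was 8.70, with 9 called higher in heart and 1 in diaphragm, and limma voom called 7 and 1. Nppa, the atrial natriuretic peptide, had 1941, 690, 2554 and 20070 CPM in heart and 0.166, 0.0258, 0.314 and 0 CPM in diaphragm (log2 fold change 15.66 ± 1.70, adjusted p = 9.57e-05). Nppb, the B-type natriuretic peptide 13516 bases away on chromosome 4, had 119, 220.1, 92 and 329 CPM and 0.0662, 0.0258, 0.0349 and 0 CPM (log2 fold change 12.40 ± 0.70, adjusted p = 1.48e-06). With almost no diaphragm counts, Nppa and Nppb could pass the low-count filter only through the heart libraries, which set their direction. The heart libraries differed widely in this list. Myl7, the atrial regulatory light chain, had 896, 47.5, 735 and 5219 CPM in heart, and Bmp10, a growth factor of the right atrium, 148, 0.496, 178 and 956 CPM, with heart 2 the lowest and heart 4 the highest in both. In diaphragm they had 0.530, 0.258, 0.558 and 1.22 CPM and 0.961, 1.16, 0 and 1.22 CPM, and for Bmp10 heart 2 lay within the diaphragm range. The liver profile would account for all of the Bmp10 level in diaphragm (liver part 103%). Bmp10 was not called in heart with limma voom (adjusted p = 0.297). The ventricular marker sum ran the other way, 4022 CPM in heart 4 and 13090 CPM in heart 2, and the amount of atrium in each sample is not given in the labels.

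In contrast to the contractile and signalling genes, the genes of oxidative metabolism were close to equal. None of 17 tricarboxylic acid cycle genes, 36 nuclear genes of complex I and 38 of complexes III to V was called in either direction, with median log2 fold changes of 0.14, -0.03 and 0.10. At an unadjusted p under 0.05 there were 0, 5 and 6 such genes, at an adjusted p under 0.05 without the limit on fold 0, 4 and 5, and neither DESeq2 nor limma voom called any. Without diaphragm 3, edgeR called 1 gene of complexes III to V higher in diaphragm. Atp5b, the catalytic beta subunit of ATP synthase, had 5630, 5960, 5567 and 4268 CPM in heart and 4041, 4631, 5528 and 4256 CPM in diaphragm, and the difference lay between -0.23 and 0.66 on the log2 scale (95% interval). Mb, which encodes myoglobin, the oxygen store of both muscles, had 11440, 13090, 11230 and 7799 CPM in heart and 7418, 9009, 11480 and 8412 CPM in diaphragm (95% interval -0.30 to 0.83). The ranges of the tissues overlapped for both genes. The ADP/ATP carrier Slc25a4 had 3886 ± 411 CPM (SD, n = 4) in heart and 4164 ± 562 CPM in diaphragm. The 7 mitochondrially encoded mRNAs tested all had positive log2 fold changes, from 0.54 to 0.98, of which edgeR called none and 4 passed the adjusted p alone. DESeq2 and limma voom each called 1 higher in heart, as did edgeR without heart 1, heart 4 or diaphragm 3. Mitochondrially encoded genes took 11.7% to 17.2% of the counts in heart and 8.17% to 10.5% in diaphragm. The gene mt-Co1, which encodes a core subunit of cytochrome oxidase, had 45350, 50490, 49200 and 31860 CPM in heart and 25660, 32850, 34470 and 28730 CPM in diaphragm (log2 fold change 0.54 ± 0.30, adjusted p = 0.181). Of 25 fatty acid genes 1, Hadh of the beta-oxidation spiral, was called, at 438, 444, 501 and 510.4 CPM in diaphragm and 195, 199, 213 and 179 CPM in heart (log2 fold change -1.27 ± 0.11, adjusted p = 1.8e-05, liver part 12.1%). Cd36 and Lpl, which bring fatty acids into the muscle, had log2 fold changes of 0.61 and 0.57 and were not called. None of 15 regulators of the PGC1, ERR and PPAR families was called (median -0.23), although 7 had an unadjusted p under 0.05. DESeq2 called 0 of them and limma voom 1, higher in heart. With edgeR, 1 was called higher in heart without diaphragm 3. In the other direction edgeR called 1 without heart 3 and 1 with liver counts subtracted.

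Genes of glycogen metabolism were often higher in diaphragm, 7 of 12 (58.3%, against 10.8% of all genes tested), and 1 was higher in heart. Pygm, the muscle glycogen phosphorylase, had 2591, 3972, 4056 and 2647 CPM in diaphragm and 1207, 1390, 1376 and 1028 CPM in heart (log2 fold change -1.41 ± 0.21, adjusted p = 0.000743), and Gys1, glycogen synthase, 437, 569.6, 639.8 and 478 CPM and 139, 156, 158 and 111 CPM (log2 fold change -1.91 ± 0.17, adjusted p = 2.38e-05). Pygb, the brain form of the phosphorylase, went the other way, with 856, 937, 1017 and 888 CPM in heart and 26.1, 28.7, 24.5 and 38.2 CPM in diaphragm (log2 fold change 4.98 ± 0.18, adjusted p = 1.19e-07). The phosphorylase genes thus differed in opposite directions, and the tissues did not overlap for either. Of 19 glycolytic genes, 3 were higher in heart, 2 in diaphragm and 14 were not called. These shares, 15.8% and 10.5%, lie near the 8.98% and 10.8% of all genes tested. Without the limit on fold, 3 were higher in heart and 10 in diaphragm at an adjusted p under 0.05. Of all 15439 genes tested, 3329 and 3350 were. The list median was -0.53, and the list summed to 6782 to 9496 CPM in heart and 12040 to 18970 CPM in diaphragm. Hk1, hexokinase 1, had 242, 262, 276 and 201 CPM in heart and 30.7, 28.3, 34.7 and 31.4 CPM in diaphragm (log2 fold change 2.97 ± 0.13, adjusted p = 2.62e-07), and the phosphofructokinases Pfkl and Pfkp, which are not the muscle form, were 2.70-fold and 3.25-fold higher in heart (liver part of Pfkl 17.3%). Aldoa, aldolase A, was 2.84-fold higher in diaphragm at 5411 ± 1502 CPM (SD, n = 4). Gpd1 was 4.54-fold higher in diaphragm, with a liver part of 20%. Slc16a3, the lactate exporter of glycolytic fibres, had 29.9, 70.7, 36.5 and 24.4 CPM in diaphragm and 2.59, 1.59, 2.47 and 3.46 CPM in heart (log2 fold change -4.00 ± 0.38, adjusted p = 4.44e-05). Ckm, muscle creatine kinase, was abundant in both and 5.30-fold higher in diaphragm (log2 fold change -2.41 ± 0.21, adjusted p = 2.62e-05), and Ampd1, the AMP deaminase of skeletal muscle, had 254, 413, 436 and 274 CPM in diaphragm and 0.0392, 0.0661, 0.0343 and 0.0998 CPM in heart (log2 fold change -12.37 ± 0.35, adjusted p = 4.32e-08). Its relative Ampd3 was 4.86-fold higher in heart. Only uniquely aligned reads had been counted, so genes with near-identical copies, such as Gapdh (8.96 CPM in heart), Eno1 and Pgam1, are uncertain in level. The liver part of Eno1 and Pgam1 was 24.7% and 36.8%.

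**Figure D5:**
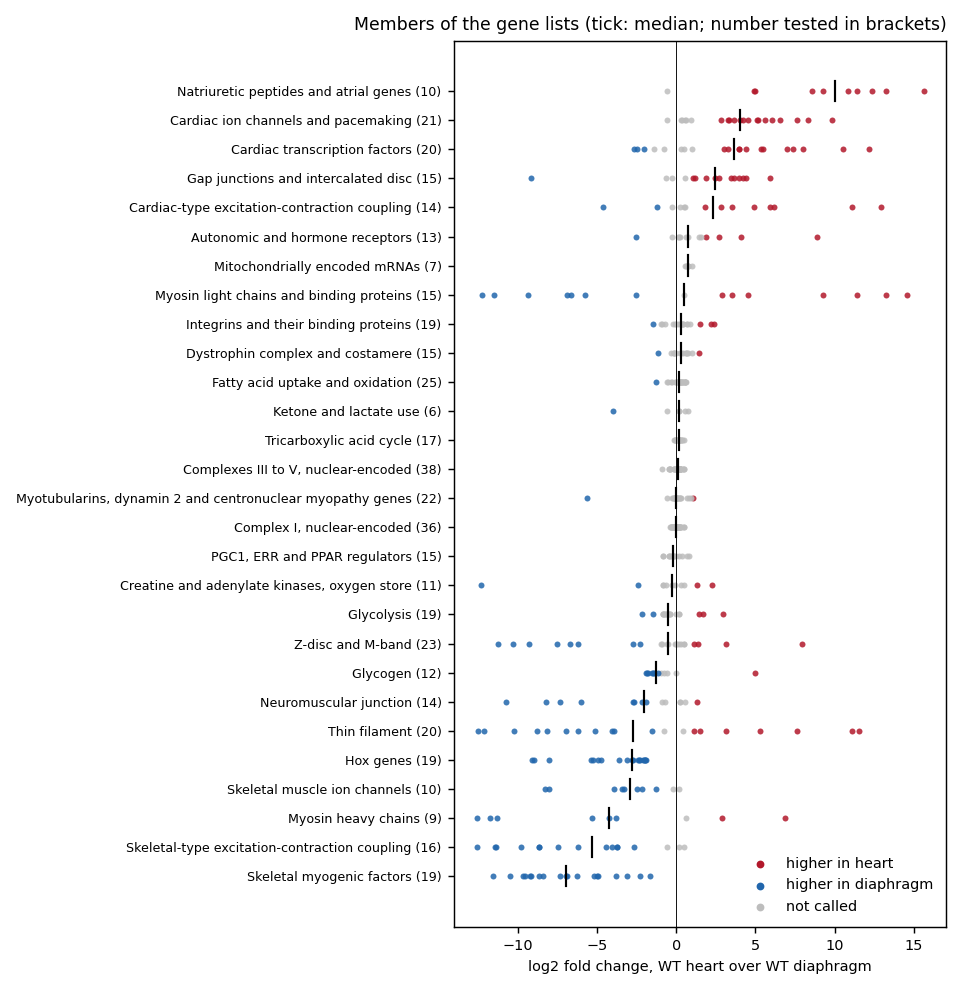
Log2 fold change, heart over diaphragm, of each tested member of the gene lists (1 point per gene), coloured by its call, with the list median as a black tick and the number tested in brackets. Medians run from -6.96 for the skeletal myogenic factors to 10.04 for the natriuretic and atrial genes, and the nuclear-encoded mitochondrial lists lie near 0.

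The gene that the series is about did not pass the test between the tissues. Mtm1, the phosphoinositide phosphatase myotubularin, had 26.3, 27.6, 33.1 and 26.4 CPM in heart and 22.2, 23.6, 30.5 and 20.1 CPM in diaphragm, a log2 fold change of 0.23 ± 0.14, adjusted p = 0.206 (95% interval -0.08 to 0.55). Dnm2, the membrane-cutting GTPase dynamin 2, had 90.8, 92.9, 83.6 and 85.3 CPM and 93.5, 82.0, 90.5 and 80.7 CPM (95% interval -0.16 to 0.21). The liver part of these levels in diaphragm was 11.7% and 11.6%, and the sign of the Dnm2 difference was not stable. Of 22 myotubularins, phosphoinositide kinases and centronuclear myopathy genes, 20 were not called, and the 4.55% called in each direction stand beside 8.98% and 10.8% of all genes tested. The exceptions were Sbf2, a catalytically inactive relative of Mtm1, at 68.8, 73.5, 70.5 and 61.1 CPM in heart and 33.1, 31.6, 35 and 31.6 CPM in diaphragm (log2 fold change 1.06 ± 0.08, adjusted p = 1.15e-05, liver part 16.5%), and Bin1. Bin1, amphiphysin 2, which shapes T-tubules and is mutated in another centronuclear myopathy, had 419.8, 541, 608 and 476 CPM in diaphragm and 11.1, 12.0, 8.63 and 9.21 CPM in heart (log2 fold change -5.64 ± 0.18, adjusted p = 7.05e-08), a 50-fold difference with no overlap.

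Some genes of other cell types differed between the tissues as well. Their counts stand beside 8.98% of all genes tested called higher in heart and 10.8% in diaphragm. Of 7 white adipocyte markers tested 6 were higher in diaphragm, and their sum ran from 849 CPM in diaphragm 3 to 4916 CPM in diaphragm 4, against 536 to 720.1 CPM in heart. With diaphragm 3 as the sole diaphragm library, a fit in which the heart libraries alone give the spread, their median log2 fold change was -1.82 in place of -3.04. Of 6 B cell markers 5 were higher in diaphragm, with sums of 65.0 to 859 CPM in diaphragm and 11 to 21.8 CPM in heart. Ighm had 468, 117, 57.9 and 830.3 CPM in diaphragm and 15.9, 17.6, 7.81 and 8.75 CPM in heart (log2 fold change -4.88 ± 0.84, adjusted p = 0.00151). The T cell genes Cd3e and Cd3d were called higher in diaphragm through diaphragm 2, which had 7.31 CPM of Cd3e against 0.563, 0.244 and 0.674 CPM in the other 3. Without diaphragm 2 the log2 fold change of Cd3e was -1.0 (adjusted p = 0.116), with the replicate block it was -2.15 (adjusted p = 0.116), and both calls were also lost without any 1 of the heart libraries. Tendon markers were higher in diaphragm in 3 of 6 cases, among them Thbs4 (59.1, 35.9, 117 and 55.3 CPM against 9.88, 8.56, 15.8 and 6.55 CPM), as were 3 of 7 Schwann cell markers. Cdh19, also a Schwann cell marker, was higher in heart (2.98-fold). Of 5 erythroid genes 4 were higher in diaphragm (median log2 fold change -1.29, and -0.62 with diaphragm 3 as the sole diaphragm library), but 2 or 3 without heart 3, heart 4 or any 1 of diaphragm 1, 2 and 4. None of 8 fibroblast and 7 mesothelial and epicardial markers was called, with 3 and 2 at an unadjusted p under 0.05. DESeq2 called 0 and 2 and limma voom 0 and 6 of them. With the replicate block 5 of the mesothelial and epicardial markers were called higher in diaphragm (median log2 fold change -1.25, against -1.01 without it), and without heart 4 there were 6 (median -1.62). Without heart 4 or diaphragm 3, 1 fibroblast marker was called, higher in diaphragm and in heart respectively. Endothelial markers all had positive log2 fold changes and 2 of 8, Vwf and Emcn, were called higher in heart. The call of Emcn was lost without heart 4 (log2 fold change 0.86) and without diaphragm 1 (0.96). It was also lost with liver counts subtracted (0.855) and with limma voom (0.897). Acta2, smooth muscle actin, had 625, 686, 698 and 614 CPM in heart and 76.3, 103, 90.0 and 89.3 CPM in diaphragm (log2 fold change 2.87 ± 0.13, adjusted p = 2.87e-07), the sole call among 8 smooth muscle and pericyte markers. The part of these cell types in the muscle gene differences was not tested. The 7 pan-cardiomyocyte markers summed to 318.4 to 848.4 CPM in diaphragm, against 50660 to 70290 CPM in heart.

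Among the genes with the largest folds were some with little-known roles. Lrrc10, a cardiac leucine-rich repeat protein, had 163, 209, 177 and 190 CPM in heart and 0.0662, 0.0258, 0.0349 and 0.0321 CPM in diaphragm (log2 fold change 12.07 ± 0.20, adjusted p = 4.21e-09). Gpr22, an orphan receptor, had 26.5, 31.6, 27.6 and 7.32 CPM in heart and no count in diaphragm, at least 998-fold higher (adjusted p = 0.000195). Heart 4, the library with the most atrial RNA, was the lowest heart library for Gpr22 and the highest for Ankrd1 and Nppb. The intergenic RNA Gm26795 on chromosome 8 had 9.65, 10.6, 14 and 10.6 CPM in heart and none in diaphragm, at least 482-fold higher (adjusted p = 4.08e-06), and 5430419D17Rik on chromosome 7 had 4.86, 1.82, 5.58 and 31.7 CPM in heart, with a wide spread, and none in diaphragm. Gm28653, an intergenic RNA on chromosome 1, had 9.44, 33.1, 13.9 and 11.8 CPM in diaphragm and none in heart, at least 654-fold higher (adjusted p = 0.000209). Genes with no count in one tissue, such as Gpr22, Gm26795, 5430419D17Rik and Gm28653, could pass the low-count filter only through the other. Their direction was set by entering the test.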

How the data were processed

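RNA of snap-frozen heart and diaphragm of untreated 5-week-old WT male mice had been made into poly-A selected, stranded libraries and sequenced. Per the submitters' processing notes, the authors used bcl2fastq 2.17.1.14, cutadapt 1.10, STAR 2.5.3a and HTSeq 0.6.1p1 with mm10. The deposited values are raw counts of uniquely aligned, unambiguous reads per Ensembl gene, and whether strand was used in counting is not given in the sources used here. Totals were 25870194 to 44289343, and 1 count was worth 0.0258 to 0.0392 CPM.

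Genes were left out by the liver rule, with levels there in plain CPM, before any fit. edgeR 4.0.16 in R 4.3.3 (filterByExpr, TMM factors, quasi-likelihood test with 4 heart and 4 diaphragm libraries, no covariate) gave log2 fold changes, standard errors derived from the F statistic and Benjamini-Hochberg adjusted p-values over all 15439 genes tested. Calls required an adjusted p below 0.05 together with a log2 fold change above 1 in size. Levels were compared between genes per kb of exon. A group without any count was set to a floor of 3 counts over its libraries, and with 1 to 3 counts the ratio is given with its exact Poisson interval. These intervals cover counting error only. A gene with almost no counts in one tissue could pass the low-count filter only through the other, which sets its direction. The liver part of a level is the mean liver profile scaled to Alb in each library. The members and the gene lists were chosen with earlier results of these data known, and list counts are descriptions.

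Genes were named by rule: all members of the isoform families, per list and direction up to 4 called members with the highest mean CPM (or the 2 most abundant where none was called), the 12 called genes per direction with the largest fold at 10 CPM or more without overlap, the 10 most abundant called genes per direction, the 10 most abundant that differed little, and Mtm1 and Dnm2. Some genes that this rule takes are not reported here. Other genes were named after their values were seen: Agrn, Ano5, Capn3, Cd36, Chrnd, Dlk1, Dmd, Dok7, Fhl2, Gapdh, H19, Hcn4, Hpgd, Hrc, Hyi, Igf2, Lad1, Lpl, Lrp4, Lsp1, Meg3, Mhrt, Mirg, Myh13, Myh3, Myh7, Myod1, Myog, Nos1, Rapsn, Rian, Trdn, Ttn, mt-Rnr1 and mt-Rnr2.

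Same-numbered heart and diaphragm libraries deviated together weakly from their group means (correlations 0.105, 0.145, 0.149 and 0.159). Differently numbered ones had correlations from -0.169 to 0.077. The labels name no animal, so whether the numbers pair the libraries is not known. The main fit was unpaired, and a fit with the replicate number as a block was an alternative. Further alternatives were DESeq2 1.42.0 size factors and test, limma 3.58.1 voom with sample weights, glmTreat, no low-count filter, all 15 WT libraries, other liver rules, subtraction of liver counts, mitochondrial genes left out of library sizes, each library left out and, chosen after seeing the data, diaphragm 3 alone. Promoter windows are from RefSeq on GRCm38.p6 and were found for 11138 of 15436 gene symbols tested. Figures were drawn with Python 3.11.15 and matplotlib 3.10.9.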

Additional observations from a re-analysis of the deposited data

Results flagged for a closer look

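In 32 of 398 groups of 4 libraries, 1 library lay farther from the others than Dixon's 95% limit for 4 values. That limit flags about 1 in 20 groups by chance if values are normally distributed, which was not examined for these CPM and shares. A gene with counts in 1 library alone, such as Myod1 or Myog in heart, is always flagged. The 32 therefore cannot be set against 1 in 20. The groups share libraries, so these results are not independent, and no explanation was tested.

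Heart 4 was the library that stood apart most often. It was the highest heart library for Nppa (20070 CPM), Myl4 (5923 CPM), Myl7 (5219 CPM), Ankrd1 (3844 CPM), Tbx5 (230 CPM) and 5430419D17Rik (31.7 CPM), and for the summed levels of the natriuretic and atrial list (41740 CPM) and the atrial markers (34050 CPM). It was also the highest heart library for several genes that were higher in diaphragm, Tpm2 (132 CPM), Clcn1 (22.7 CPM), Atp2a1 (15.1 CPM), Myoz3 (0.133 CPM) and Myog (0.0333 CPM). With 1 count worth 0.0333 CPM in heart 4, Myog rests on 1 count and Myoz3 on few. Its cardiac-type share was 57.6% for the SERCA inhibitors and 99.8% for the SERCA pump, both the lowest of the heart libraries, and 91.1% for leiomodin, the highest.

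Other heart libraries stood apart in single results. Heart 1 was the highest for Tbx15 (0.745 CPM), Myod1 (0.0392 CPM, 1 count) and the summed T cell markers (1.69 CPM). Heart 2 held the only heart count of 2310065F04Rik (0.0331 CPM). Heart 3 was the highest for Atp2a2 (19040 CPM) and held the only heart counts of Cdh15 (0.103 CPM), with the lowest cardiac-type share of the cadherins (99.9%).

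Among the diaphragm libraries, diaphragm 2 was the highest for Cd3e (7.31 CPM), Cd3d (5.81 CPM) and the T cell and thymocyte sum (53.5 CPM). Diaphragm 3, the library with little liver RNA, was the highest for Casq2 (427 CPM) and Myh7b (30.9 CPM) and the lowest for Tbx20 (0.349 CPM). Diaphragm 1 had the lowest brown adipocyte sum (399 CPM) and the only diaphragm count of Irx4 (0.0331 CPM), and diaphragm 4 the highest Chrm2 (0.867 CPM).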

How the results depend on the processing

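The counts of called genes, 1387 higher in heart and 1661 higher in diaphragm, stayed within 1.5 times under the other scalings, DESeq2, limma voom, the other low-count filter, all 15 WT libraries and the other liver rules. Without any liver rule 1433 and 2315 genes were called. An adjusted p alone gave 3329 and 3350, glmTreat 775 and 807, and diaphragm 3 as the sole diaphragm library 867 and 980, where the fit rests on 5 libraries. Leaving out 1 library at a time gave 1365 to 1542 and 1559 to 1900. With the replicate block the counts were 1357 and 1660, of which 2923 genes were called in both fits. Of the genes named here the block ended the call of Cd3e alone, but it moved list counts, mesothelial and epicardial markers in diaphragm from 0 to 5, erythroid from 4 to 5, tendon from 3 to 4, T cell from 2 to 1, and dystrophin complex genes in heart from 1 to 2.

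Of the values tried for named genes, 3450 kept their side, 63 lost and 15 gained the call, and 22 changed sign, all but Cd3e in genes that were not called. On the log2 scale, leaving out 1 library at a time gave -1.362 to 0.576 for Sln (lowest without heart 4), -0.01 to 0.061 for Dnm2, -0.159 to 0.157 for Dmd and -0.171 to 0.102 for Actn2. Sln was -1.402 and Dmd 0.112 with limma voom, and Sln was -1.03 with the replicate block. Dnm2 was -0.022 with the liver rule at 2 times heart. With liver counts subtracted Sln was -0.037, Dnm2 -0.01 and Ldhb -0.061. With diaphragm 3 alone Sln was -0.162, Dnm2 -0.027, Ldhb -0.217, Atp5b -0.033, Cd3e 0.021, Dok7 -0.004, Mb -0.063 and Mtm1 -0.093. The cause was not tested. Depth limits genes with few counts, where 1 count was worth 0.0258 to 0.0392 CPM.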

Other observations

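Several genes outside the lists above differed strongly, and they are given here as values chosen after they were seen. H19, an imprinted non-coding RNA on chromosome 7, had 3799, 4498, 5041 and 3614 CPM in diaphragm and 46.2, 14.9, 41.8 and 70.2 CPM in heart (log2 fold change -6.61 ± 0.49, adjusted p = 8.59e-06), the lowest heart level being in heart 2 and the highest in heart 4. Its neighbour Igf2, the imprinted growth factor gene, had 5.73, 5.45, 6.42 and 4.53 CPM in diaphragm and 1.96, 1.16, 2.43 and 5.32 CPM in heart and was not called (log2 fold change -1.02 ± 0.40, adjusted p = 0.0637). The imprinted genes Dlk1, Meg3, Rian and Mirg, which lie together on the plus strand of chromosome 12 between 109452823 and 109749460 (mm10), were 14.1-fold, 4.36-fold, 4.95-fold and 8.28-fold higher in diaphragm, and each was higher in all 4 diaphragm libraries than in any heart library. Of the muscle disease genes, Capn3, a muscle calpain, had 131, 195, 233 and 145 CPM in diaphragm and 6.04, 8.50, 6.68 and 4.92 CPM in heart (log2 fold change -4.75 ± 0.25, adjusted p = 8.33e-07), and Ano5 had 86.1, 121, 149.7 and 87.8 CPM and 0.235, 0.0661, 0.0343 and 0.266 CPM (log2 fold change -9.51 ± 0.39, adjusted p = 2.27e-07). Nos1, the neuronal nitric oxide synthase of skeletal fibres, was 38.2-fold higher in diaphragm. Among genes higher in heart, Fhl2, a LIM protein, had 1804, 2271, 1642 and 649.9 CPM in heart and 21.3, 24.3, 38.0 and 20.2 CPM in diaphragm (log2 fold change 5.94 ± 0.44, adjusted p = 8.71e-06), and Mhrt, a non-coding RNA of the Myh6 and Myh7 locus, had 56.9, 68.5, 57.4 and 78.3 CPM and 0.0994, 0, 0.0349 and 0 CPM (log2 fold change 10.85 ± 0.37, adjusted p = 8.41e-08). With strand use in counting unknown, the Mhrt level may hold or lack reads of genes on the other strand.

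The remaining lists gave the following counts. They stand beside 8.98% of all genes tested called higher in heart and 10.8% in diaphragm. Of 13 autonomic and hormone receptors 4 (30.8%) were higher in heart and 1 (7.69%) in diaphragm. Of 11 creatine, adenylate kinase and oxygen store genes, 2 were called in each direction (18.2% each). Of 6 ketone and lactate genes 1, Slc16a3, was called. Of 5 satellite cell markers 4 were higher in diaphragm, and Vcam1, which endothelial and other cells also express, was higher in heart. The call of Vcam1 was lost without heart 4 (log2 fold change 0.78), without diaphragm 2 (adjusted p = 0.0552) and with limma voom (log2 fold change 0.839). All 4 ventricular and 5 of 6 atrial markers were higher in heart, Sln being the exception, while limma voom called 3 of the atrial markers and their median log2 fold change fell from 10.33 to 8.70 without heart 4. Of 4 endocardial markers 1, Cytl1, was higher in heart. Of 8 macrophage markers 1, Lyz2, was higher in diaphragm, with its highest levels in diaphragm 1 and 2 (479 and 495 CPM against 201 and 198 CPM in the others), and the call was lost without either of them (log2 fold changes -0.93 and -0.91) and without heart 2 or heart 3 (adjusted p = 0.0525 and 0.0554). None of 4 brown adipocyte markers was called by edgeR, with 1 at an unadjusted p under 0.05, 1 called by DESeq2 and by limma voom and 2 without heart 1, and the 1 lung marker tested, Ager, was not called (1 at an unadjusted p under 0.05, none by DESeq2). In these libraries the mitochondrial rRNA genes mt-Rnr1 and mt-Rnr2 had negative log2 fold changes of -0.81 and -0.98, opposite to the mitochondrially encoded mRNAs, and neither was called.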
